A study of Rattus norvegicus with 23 samples.

Results

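The right first mandibular molars of rats killed at 31 days of age were compared between experimental and control animals, with 1 array of periodontal ligament from each of 3 experimental and 3 control right molars. These 6 arrays, of 23 in the series, were chosen by their labelled condition, side and age, and all genes measured were described. The animals were male Wistar rats, given as 4 weeks old in the growth label, and by its title the study concerns molars that have no opposing tooth. An experimental animal's right and left molars both carry the experimental label, and the side that lacked its opponent is not named, so a right molar is described here by its label alone. For the control animals the labels state no treatment. The other arrays hold the left molars of the same ages and the right and left molars of animals killed at 43 days. No label names the animal, and the number in each title was taken to be that of the animal. The animals are called E1, E2 and E3 (experimental) and C1, C2 and C3 (control) at 31 days.

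Periodontal ligament is the collagen-rich tissue that suspends the tooth root in its bony socket, and its fibroblasts build and renew the fibres that carry biting force. Small proteoglycans such as fibromodulin and decorin control how collagen molecules assemble into fibrils, while fibulins and fibrillins form the elastic microfibrils that run beside them. On the bone side of the ligament, osteoblasts lay down bone and osteoclasts resorb it, and a tooth that meets no opponent continues to move out of its socket while ligament and bone are remodelled around it.

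Values are log2 expression values per gene after quantile normalization between arrays, and a difference is the experimental mean minus the control mean on that scale, so that 1 is a 2-fold difference. Before this normalization the medians of 5 of the 6 arrays lay between 6.50 and 6.58 and that of control C2 lay at 6.17. The series as a whole fell into such sets of 11 arrays with higher and 12 with lower medians, which no label names. Periostin (Postn), a defining product of periodontal ligament fibroblasts, was measured at 12.3 to 13.3 in the 6 arrays. Genes of other cell types were also measured in the scraped tissue, at means that differed between arrays. The mean over 22 oral epithelium genes was 11.40 in E1, 10.90 in E2 and 8.74 in E3, against 9.71 in C1, 10.12 in C2 and 9.69 in C3. The mean over 10 skeletal muscle genes was 7.91 in E1 and 6.20 to 6.43 in the other 5 arrays. The mean over 13 erythroid genes was 7.72 in E1 and 8.14 in C2, against 8.80 to 9.36 in the others. E1 thus stood apart in muscle and erythroid genes, and C2 in erythroid genes and in its deposited median. In epithelial genes E1 and E2 lay above all controls and E3 below them. Values without single arrays are given beside several results. For a gene, such a value is the difference of the means of the arrays kept. For a list it is the median of fitted differences, in which the animal block also draws on the other molar of the animal left out. In a sample of whole tissue, fewer cells of a type and less RNA per cell cannot be told apart.

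No gene passed the test in this comparison. Of 13624 genes tested, 0 (0%) had an adjusted p under 0.05 (limma, Benjamini-Hochberg), and the smallest adjusted p was 0.197, for Efemp1. At an unadjusted limma p under 0.05 there were 422 genes, or 3.1%. All 3 experimental arrays lay above all 3 controls for 854 genes (6.27%) and below them for 573 (4.21%). The groups were apart by this criterion and by at least 2-fold in their means for 8 genes that lay higher (0.0587%) and 24 that lay lower (0.176%). The median difference over all genes was 0.02, with 55.4% of genes higher. With the values as deposited the median was 0.16, 79.9% of genes were higher, and the genes 2-fold apart numbered 15 higher and 13 lower. These counts differed when a single array was left out: without C2 they were 11 higher and 37 lower, and without E3 they were 276 higher and 71 lower. With fewer arrays in a group, no overlap is easier to meet, so these counts are not like for like with the 8 and 24. What follows therefore describes values and their order, and no single gene is given as changed. The shares of all genes without overlap, 6.27% higher and 4.21% lower, are the background for each count of list members without overlap.

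Matrix and contractile genes were among the 24 that lay lower. The elastic fibre gene Efemp1 (fibulin-3) had the smallest p of all genes, and fibromodulin, Fmod, had the largest difference of the 32. Efemp1 was measured at 7.71, 7.52 and 7.32 in E1, E2 and E3 and at 8.21, 8.62 and 8.85 in C1, C2 and C3. The highest experimental array lay below the lowest control, and the gap between them was smaller than the range of the controls. The difference was -1.04 ± 0.18 (SE, n = 3 per group), with a limma p of 1.44e-05 before and 0.197 after adjustment, and it was -1.01 without C2 and -1.14 without E1. Fmod was measured at 7.94, 8.52 and 8.85 in the experimental arrays and at 10.33, 11.25 and 10.10 in the controls. All experimental values lay at least 1 unit below every control, and the mean was 4.35-fold lower. The difference was -2.12 ± 0.53 (limma adjusted p = 0.988), and -1.78 without C2, the highest control. Tspan2, a membrane protein of the tetraspanin family, was measured at 6.67, 7.28 and 8.11 against 8.82, 9.89 and 8.69, with a difference of -1.78 ± 0.39. Here E3 came nearest to the controls and E1 was farthest from them. That order held for many of the 24 genes: E3 was nearest the controls in 19 and E1 farthest in 18.

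**Figure D1:**
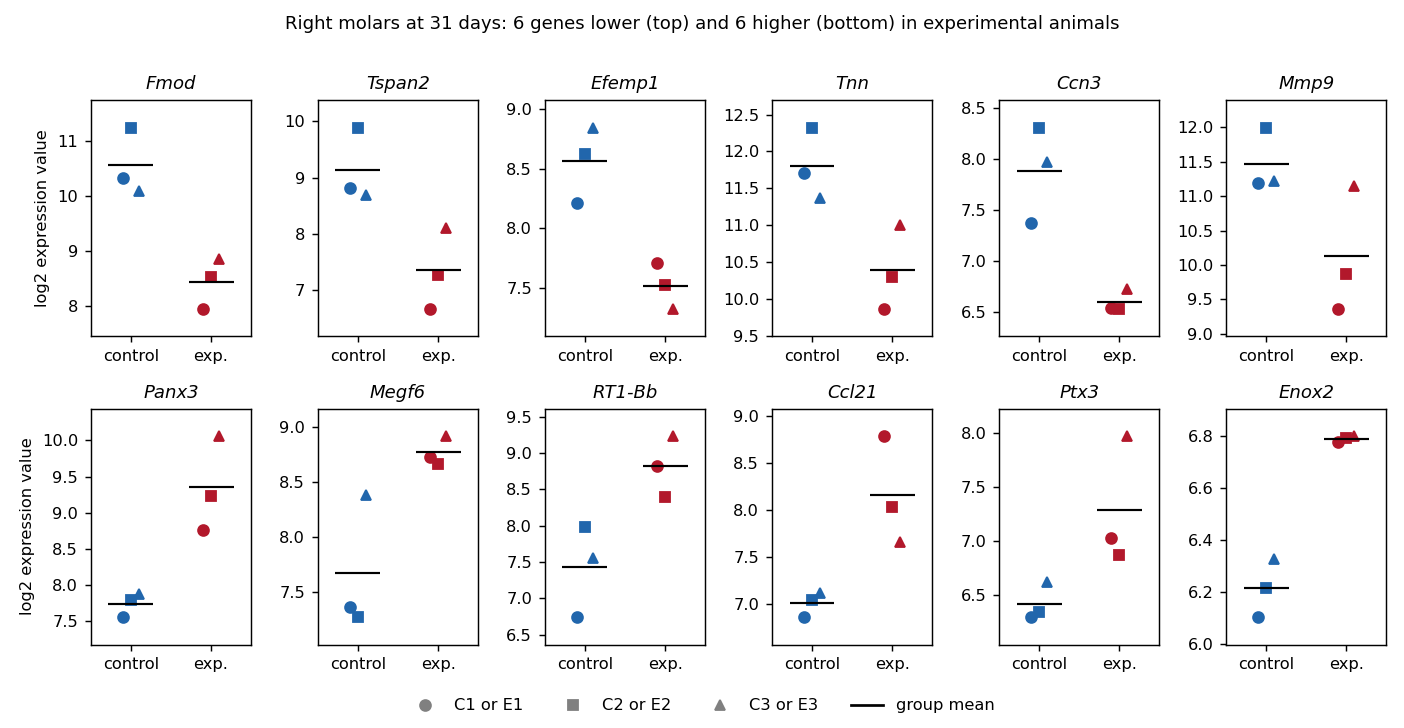
Log2 expression values of 12 genes in each of the 3 control and 3 experimental right molars at 31 days, with each panel on its own axis, symbols for the animals and a line at the group mean. In every panel the groups do not overlap, and Efemp1 shows 7.32 to 7.71 in the experimental arrays against 8.21 to 8.85 in the controls.

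The bases directly upstream of 3 of these genes are shown because Efemp1 and Megf6 had the smallest p among the genes 2-fold lower and 2-fold higher and Fmod the largest difference. They are the 250 bases before the annotated gene start, from RefSeq on assembly GRCr8, all on the plus strand: Efemp1 at chr14:106811614-106811863, Fmod at chr13:48045317-48045566 and Megf6 at chr5:170020528-170020777. Capitals mark matches on either strand to CAGCTG, an E-box of the kind bound by basic helix-loop-helix transcription factors, and to GGAATG, the core motif of TEAD factors that work with YAP. The motifs can overlap by no more than an end base.
Efemp1: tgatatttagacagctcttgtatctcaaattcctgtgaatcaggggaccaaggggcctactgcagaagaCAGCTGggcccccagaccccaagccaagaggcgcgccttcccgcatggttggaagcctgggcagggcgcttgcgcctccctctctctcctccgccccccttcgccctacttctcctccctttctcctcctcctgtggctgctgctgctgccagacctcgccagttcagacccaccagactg
Fmod: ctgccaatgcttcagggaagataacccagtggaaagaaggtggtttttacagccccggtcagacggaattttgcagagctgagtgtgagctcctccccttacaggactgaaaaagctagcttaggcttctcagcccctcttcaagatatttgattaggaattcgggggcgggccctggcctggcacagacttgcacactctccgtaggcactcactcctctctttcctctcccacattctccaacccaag
Megf6: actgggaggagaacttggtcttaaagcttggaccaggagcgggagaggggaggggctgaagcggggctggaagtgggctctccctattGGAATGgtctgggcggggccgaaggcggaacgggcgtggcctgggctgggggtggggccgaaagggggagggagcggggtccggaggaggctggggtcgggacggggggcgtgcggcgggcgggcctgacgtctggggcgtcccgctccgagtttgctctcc
The Efemp1 window held 1 E-box, 181 bases before the start, and that of Megf6 held 1 TEAD motif, 162 bases before the start. In the Fmod window these letters were not found. Of 33469 windows of the same length, 12.0% held the E-box and 12.1% the TEAD motif.

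Other ligament matrix genes lay lower with the groups apart. Tnn (tenascin-N, a matrix glycoprotein of periosteum and ligament) was measured at 9.86, 10.29 and 11.00 in the experimental arrays and at 11.70, 12.32 and 11.37 in the controls. Its groups did not overlap, and the difference was -1.41 ± 0.50. Ccn3, a matricellular protein, lay at 6.54, 6.53 and 6.73 against 7.37, 8.31 and 7.97. The 3 experimental values were nearly equal and the controls spread over almost 1 unit, giving a difference of -1.28 ± 0.34. Sulf1, which removes sulfate groups from heparan sulfate chains, differed by -1.42 ± 0.48, and the secreted proteins Spon2 and Ssc5d by -1.19 ± 0.41 and -1.14 ± 0.37. The tendon and ligament transcription factor Scx was measured at 6.55, 6.49 and 6.68 against 6.95, 7.42 and 6.75. Its groups did not overlap but E3 and C3 lay close together, and the difference was -0.47 ± 0.17. Postn, named here for the tissue it marks, lay at 12.27, 12.40 and 12.95 against 13.15, 13.35 and 13.05, a difference of -0.64 ± 0.32. Tnmd, a membrane protein of mature tendon and ligament cells, went the other way: 6.81, 6.98 and 7.50 in the experimental arrays lay above 6.48, 5.47 and 6.68 in the controls. C2 was far below the other controls for Tnmd, and the difference was 0.89 ± 0.45.

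Of 24 ligament and tendon fibroblast genes tested, 18 lay lower and 6 higher. The median difference was -0.30, against 0.02 over all genes, and 6 members were without overlap on the lower side (4.21% of all genes) and 1 on the higher (6.27% of all genes). The list's mean per array was 9.24, 9.53 and 9.97 in E1, E2 and E3 and 9.75, 10.08 and 10.09 in C1, C2 and C3. E3 thus lay within the range of the controls, and without E1 the median difference was -0.08. Elastic fibre and microfibril genes showed a median of -0.39, with 10 of 13 lower and 4 without overlap, all lower. Besides Efemp1 these were Fbln1 (fibulin-1, -1.21 ± 0.34), Ltbp1, which holds latent TGF-beta in the matrix (-0.70 ± 0.22), and Fbn1 (fibrillin-1, -0.55 ± 0.36). Elastin itself, Eln, differed by 0.04. Without E1 the median of this list was -0.21.

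Of 30 fibrillar collagen and collagen-processing genes, 27 lay lower, 5 of them without overlap, with a median of -0.21. The main collagen of the ligament, Col1a1, hardly differed, at 13.69, 13.75 and 13.91 against 13.77, 13.77 and 13.88. Its groups overlapped fully, and the difference was -0.02 ± 0.14. The minor collagens Col6a3 (-0.90 ± 0.37), Col6a2 (-0.78 ± 0.29), Col5a3 (-0.76 ± 0.27) and Col12a1 (-0.60 ± 0.41) were without overlap, as was the crosslinking enzyme Loxl2 (-0.94 ± 0.50). Col6a2 and Col6a3 encode chains of type VI collagen, which forms beaded filaments around cells. The list's mean was lowest in E1, at 9.71, and highest in E3, at 10.59, with the controls between 10.27 and 10.54. Without E1 the median over the list was -0.04.

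**Figure D2:**
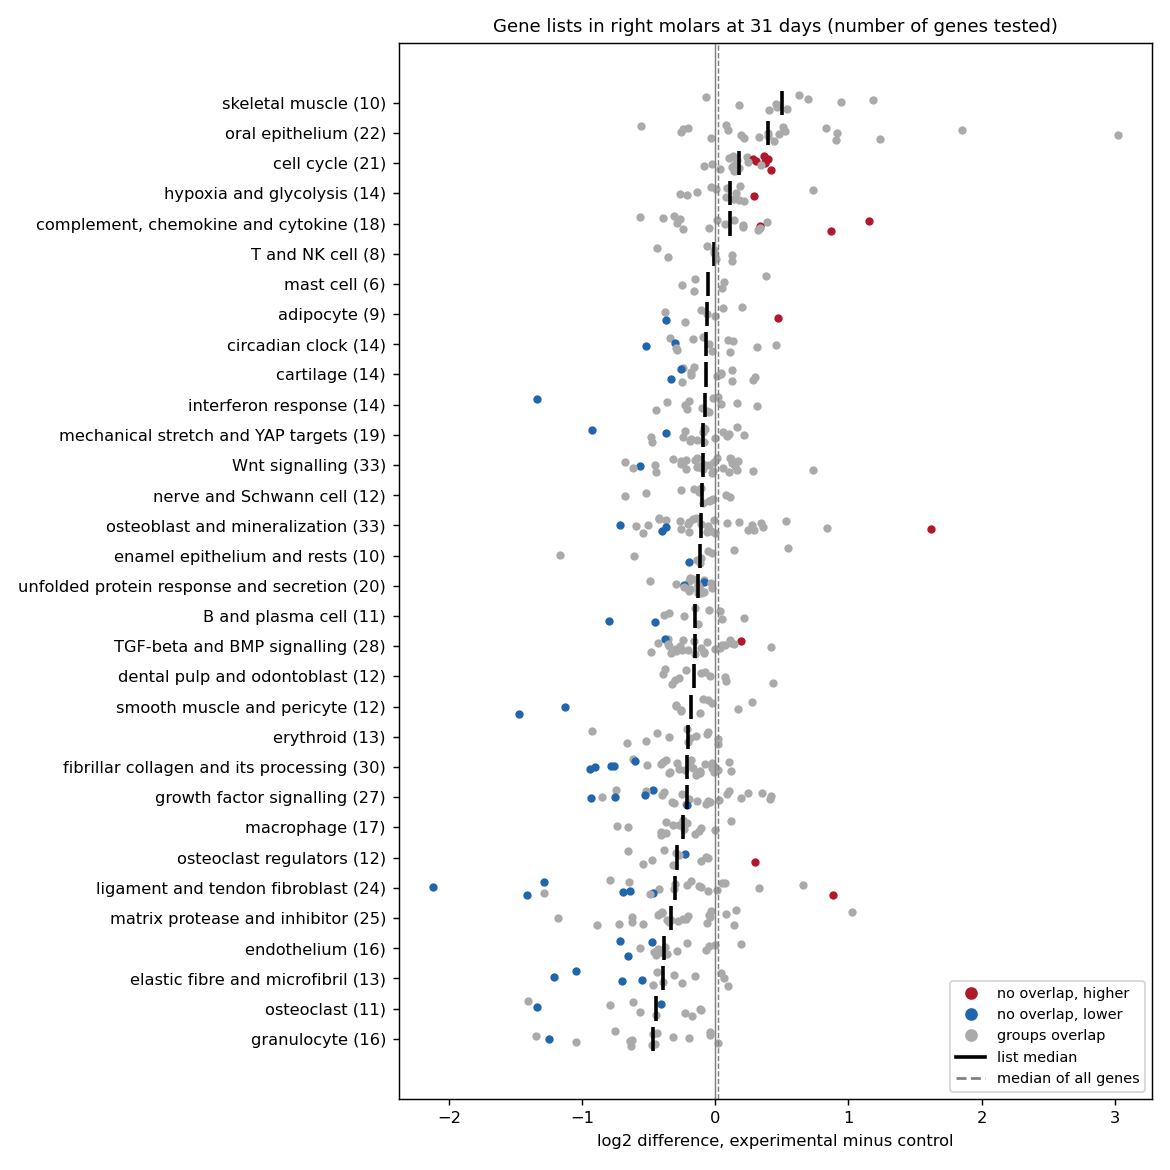
Differences between experimental and control right molars at 31 days (log2, horizontal axis) for the members of 32 gene lists, 1 point per gene, with list medians as bars and the median of all genes (0.02) as a dashed line. Medians run from -0.47 in the granulocyte list to 0.50 in the skeletal muscle list, and coloured points are genes whose groups did not overlap.

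Among genes of contractile and vessel wall cells, Tagln, Myl9 and most endothelial genes lay lower. Tagln (transgelin, an actin-binding protein of smooth muscle and of contractile fibroblasts) was measured at 8.11, 8.15 and 9.02 in the experimental and at 9.24, 9.69 and 10.78 in the control arrays. The groups did not overlap, although E3 came close to C1. The difference was -1.47 ± 0.59. Myl9, a light chain of smooth muscle myosin, lay at 7.88, 8.05 and 8.66 against 9.02, 9.16 and 9.82, a difference of -1.13 ± 0.41. The other 10 of the 12 smooth muscle and pericyte genes lay between -0.29 and 0.28, Myh11 at -0.29 and Des at 0.28, and the list's median was -0.19. That median was -0.06 without C3 and -0.05 with the values as deposited, with 6 of 12 genes higher in each. Of 16 endothelial genes 15 lay lower, with a median of -0.39 and 3 without overlap, beside 4.21% of all genes: the receptor Adgrl4 (-0.72 ± 0.25), von Willebrand factor, Vwf (-0.66 ± 0.28), and the surface protein Cd34 (-0.48 ± 0.20). The median of this list was -0.26 without E1 and -0.38 without C2. P-selectin, Selp, with which activated endothelium and platelets catch leukocytes, was measured at 6.64, 6.33 and 6.20 against 7.13, 8.10 and 7.85. All experimental arrays lay below the lowest control, C1, and the difference was -1.30 ± 0.35.

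Genes of bone resorption lay lower as well. All 11 osteoclast genes tested had a lower experimental mean, with a median of -0.44. Mmp9, a gelatinase that osteoclasts and neutrophils secrete, was measured at 9.36, 9.87 and 11.15 in E1, E2 and E3 and at 11.19, 12.00 and 11.22 in C1, C2 and C3. E3 lay just under the lowest control while E1 and E2 lay more than 1 unit lower, and the difference was -1.34 ± 0.50. Atp6v0d2, a subunit of the osteoclast proton pump, lay at 5.53, 6.46 and 8.01 against 7.64, 8.84 and 7.73. Here E3 fell inside the control range, and the difference was -1.40 ± 0.63. Ctsk, the protease cathepsin K with which osteoclasts digest collagen, lay at 10.90, 11.61 and 12.54 against 12.24, 12.84 and 12.32, again with E3 inside the control range. The chloride channel gene Clcn7, at -0.41 ± 0.21, was without overlap. Without E1 the median of the list was -0.31, and without C2 it was -0.25. Among 12 regulators of osteoclasts, 11 lay lower, with a median of -0.28, including the osteoclast differentiation factor RANKL, Tnfsf11 (-0.32 ± 0.20), and its decoy receptor, Tnfrsf11b (-0.54 ± 0.37). The exception was Tnf, at 6.86, 7.03 and 6.96 against 6.61, 6.49 and 6.85, which lay higher by 0.30 ± 0.14 with C3 close under the lowest experimental array.

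Of 25 matrix proteases and inhibitors 21 lay lower and none of them was without overlap, with a median of -0.33, and -0.13 without C2. The collagenase Mmp13 was measured at 10.51, 10.49 and 11.93 against 11.66, 12.45 and 12.37, with E3 above C1. The inhibitor Timp3 lay at 9.28, 9.51 and 10.21 against 10.07, 10.78 and 10.82, also with E3 above C1. Adamts18, a secreted protease, lay the other way, at 8.62, 9.04 and 9.56 against 7.79, 8.67 and 7.69. Only E1 fell below C2, and the difference was 1.03 ± 0.41.

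Of 17 macrophage genes 16 lay lower, with a median of -0.24 and none without overlap. That median was -0.09 without E1 and -0.46 without E3. The lysosomal protein gene Cd68 was measured at 8.05, 8.46 and 9.72 against 9.19, 10.15 and 9.10, so E3 lay above C1 and C3. Granulocyte genes had the lowest median of the 32 lists, -0.47, with 15 of 16 lower and 1 without overlap. That gene was Lcn2, which neutrophils store in granules, at 6.19, 6.29 and 6.68 against 7.66, 7.11 and 8.13. The experimental arrays were close together and C2 was the lowest control, and the difference was -1.24 ± 0.57. The granulocyte list's mean was 8.22 in C1 and 8.30 in C3 but 7.30 in C2, and the experimental arrays lay at 6.78, 7.69 and 7.71. Without C2 the median was -1.07. Lbp, which carries bacterial lipopolysaccharide to its receptor, was measured at 7.37, 7.94 and 8.94 against 9.21, 11.12 and 9.52. E3 came near C1 while C2 was far above the other controls, and the difference was -1.87 ± 0.57. Rag1 and Rag2, which cut the antigen receptor genes of developing lymphocytes, were without overlap at -0.80 ± 0.42 and -0.46 ± 0.19. Their experimental means, 5.53 and 5.49, lay under the limit of 5.81 set for a gene's mean over all arrays. The 11 B and plasma cell genes had a median of -0.15, whose sign rested on single arrays. That median was 0.14 without E1, 0.25 without C1 and -0.59 without C2.

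**Figure D3:**
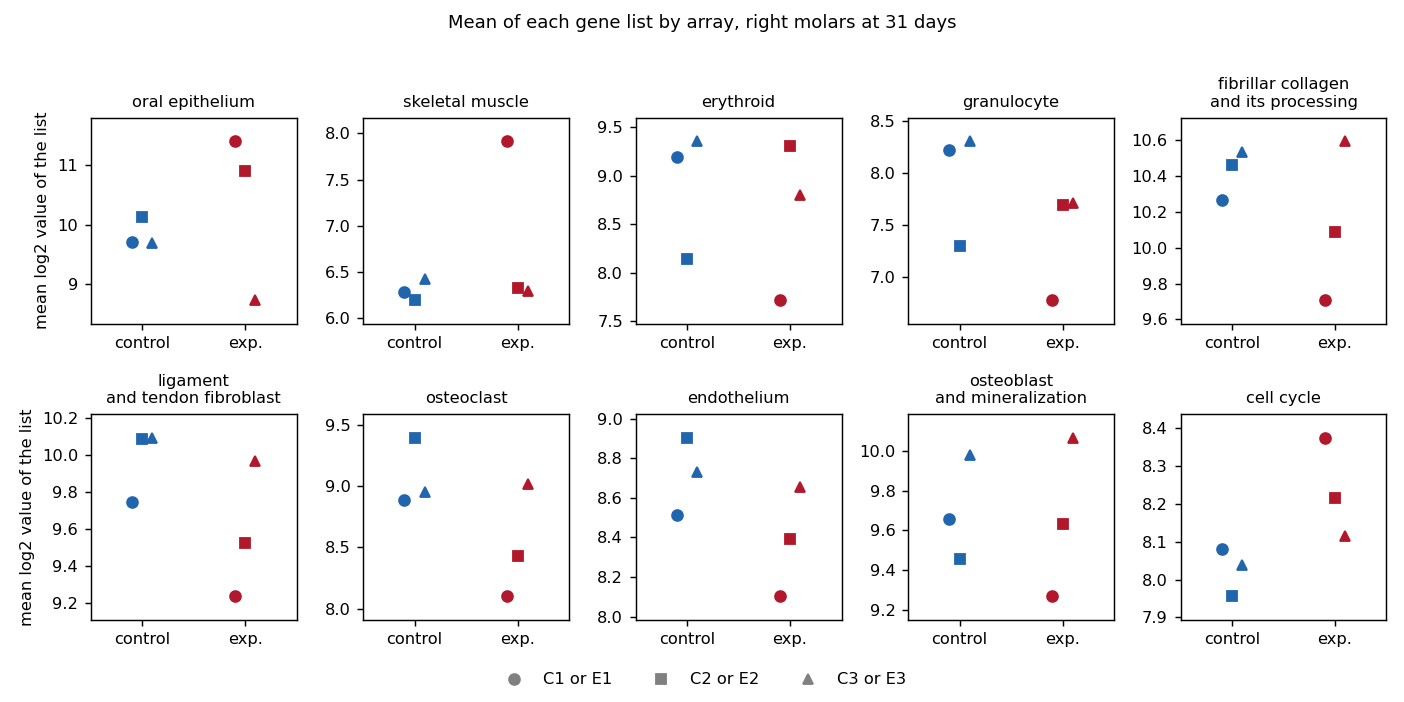
Mean log2 value of 10 gene lists in each right molar at 31 days, control and experimental, with symbols for the animals and each panel on its own axis. E1 has the highest oral epithelium (11.40) and skeletal muscle (7.91) means and the lowest collagen mean (9.71), and the cell cycle panel is the one of these 10 in which the groups do not overlap.

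The largest difference among the genes that lay higher without overlap was that of Panx3, a channel protein of osteoblasts and cartilage cells. Panx3 was measured at 8.76, 9.24 and 10.07 in E1, E2 and E3 and at 7.55, 7.79 and 7.87 in C1, C2 and C3. The controls lay close together, and the lowest experimental array lay nearly 1 unit above the highest of them. The mean was 3.07-fold higher and the difference 1.62 ± 0.41 (limma adjusted p = 0.988), with 1.64 without C2, 1.92 without E1 and 1.26 without E3. Megf6, a protein with repeats like those of epidermal growth factor, lay at 8.73, 8.67 and 8.92 against 7.36, 7.27 and 8.38. The experimental arrays lay close together while C3 was about 1 unit above the other controls. The difference was 1.10 ± 0.24, with a limma p of 0.000225 before and 0.978 after adjustment, and without C3 it was 1.46, with an adjusted p of 0.0562 in the limma fit of the other arrays. Enox2, a cell surface oxidase, had closely placed experimental values, 6.78, 6.79 and 6.80, against 6.10, 6.21 and 6.33, and differed by 0.58 ± 0.13.

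Immune genes were also among those that lay higher. RT1-Bb, a beta chain of the class II molecules that present antigen, was measured at 8.82, 8.39 and 9.24 against 6.74, 7.98 and 7.55. The controls spread over more than 1 unit and stayed below every experimental array, and the difference was 1.39 ± 0.41. The other class II genes, looked up after this value was seen, did not share its size: RT1-Ba differed by 0.30 ± 0.23, Cd74, whose product escorts class II molecules, by 0.34 ± 0.26, RT1-Da by 0.04 ± 0.36 and RT1-Db1 by -0.17 ± 0.23. Ccl21, a chemokine of lymphatic vessels and lymph nodes, lay at 8.79, 8.03 and 7.66 against 6.85, 7.04 and 7.11. E1 was highest, the controls were tightly placed, and the difference was 1.16 ± 0.48. Ptx3, a soluble pattern recognition protein, lay at 7.03, 6.87 and 7.98 against 6.30, 6.35 and 6.63. E3 stood well above the other 5 arrays, and the difference was 0.87 ± 0.27. Both are members of the complement, chemokine and cytokine list, in which 11 of 18 lay higher, 3 of them without overlap, with a median of 0.11.

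The other genes 2-fold higher without overlap had their highest value in E1, the array with the highest epithelial and muscle means. Hpgd, which inactivates prostaglandins, lay at 8.42, 7.28 and 6.40 in E1, E2 and E3 against 5.82, 6.22 and 6.12. Xkrx lay at 8.02, 7.61 and 6.86 against 6.68, 6.07 and 6.13, Slc46a2 at 7.79, 7.62 and 6.38 against 6.23, 6.09 and 6.09, and Plbd1 at 9.95, 9.31 and 9.11 against 8.49, 8.14 and 8.58. In these 4 genes and in Ccl21, 5 of the 8 genes 2-fold higher, the order E1, E2, E3 was that of the oral epithelium mean. In each of the 5, E3 came nearest the controls. The part of epithelial content in these differences was not tested.

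Most bone-forming genes did not share the direction of Panx3. Of 33 osteoblast and mineralization genes 10 lay higher and 23 lower, with a median of -0.11, and 0.05 without E1. Apart from Panx3, the members without overlap all lay lower: Fam20c, the kinase that phosphorylates secreted matrix proteins (-0.71 ± 0.21), Runx2, the transcription factor of the osteoblast lineage (-0.40 ± 0.30), and Mepe, a matrix protein of osteocytes (-0.37 ± 0.13). The experimental mean of Mepe, 5.66, lay under the limit of 5.81 set for a gene's mean over all arrays. Osteopontin, Spp1, lay at 9.95, 10.98 and 11.76 against 11.43, 11.40 and 11.49, so the controls were nearly equal and the experimental arrays surrounded them. Bglap (osteocalcin) differed by -0.17 ± 0.36. Of 14 cartilage genes 7 lay higher and 7 lower, with a median of -0.07.

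Of 27 growth factor genes 19 lay lower, 5 of them without overlap, beside 4.21% of all genes. The median was -0.21, and -0.08 without E1. Of the 9 members of the insulin-like growth factor system, tallied after their values were seen, 6 lay lower and 3 higher, and 3 of the lower ones were without overlap. Igfbp6, which binds insulin-like growth factors, lay at 7.42, 7.75 and 7.83 against 8.24, 8.98 and 8.57. Igfbp3, a further binding protein, lay at 9.98, 10.27 and 10.09 against 10.39, 10.90 and 11.32, and the receptor Igf1r at 8.98, 9.16 and 9.26 against 9.71, 9.49 and 9.79. In each gene the highest experimental array lay below the lowest control, with differences of -0.93 ± 0.30, -0.75 ± 0.20 and -0.53 ± 0.14. Of 28 TGF-beta and BMP genes 20 lay lower, with a median of -0.15. That median was -0.004 without C3 and -0.01 with the values as deposited, with 13 genes higher in each. The BMP antagonist Nog lay higher by 0.42 ± 0.19 with C3 above E1 and E2. Wnt genes had a median of -0.10, with 22 of 33 lower. Within them, Rspo1, a secreted amplifier of Wnt signals, lay lower without overlap (-0.56 ± 0.23), and the ligand Wnt16 lay higher, at 7.48, 6.68 and 6.42 against 6.50, 5.80 and 6.07, with E3 below C1. Of 19 mechanical stretch and YAP target genes 14 lay lower, with a median of -0.09. The stretch-induced matricellular gene Ccn1 lay at 8.59, 8.91 and 9.17 against 9.19, 9.96 and 10.31, with E3 just under C1. With the values as deposited, where the median of all genes was 0.16, the medians of the Wnt and stretch lists turned to 0.04 each.

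Cell division genes lay higher. Of 21 cell cycle genes 19 had a higher experimental mean, beside 55.4% of all genes (79.9% as deposited). Of them 7 were without overlap, beside 6.27% of all genes, and 0 were without overlap on the lower side. The median was 0.18. Top2a, the topoisomerase that untangles replicated DNA, was measured at 8.88, 8.60 and 8.57 against 8.33, 8.15 and 8.30, a difference of 0.42 ± 0.23. The mitotic kinase Aurkb lay at 7.90 to 8.19 against 7.61 to 7.77, a difference of 0.36 ± 0.20. For both genes E1 was highest and the groups were narrowly apart. The list's mean per array was 8.38, 8.22 and 8.11 in E1, E2 and E3 and 8.08, 7.96 and 8.04 in C1, C2 and C3. This order of the experimental arrays was also that of the oral epithelium mean, and without E1 the median was 0.16. In left molars of 31 days the median of the cell cycle list was -0.22, beside -0.13 over all genes. In right molars of 43 days it was 0.09, beside 0.03 over all genes. All 20 genes of the unfolded protein response and secretion lay lower, with a small median of -0.13, which was 0.01 with the values as deposited. Among 14 clock genes Npas2 and Cry1 were without overlap, at -0.52 ± 0.20 and -0.30 ± 0.13, and 5 lay higher.

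The largest difference of any list member was in an epithelial keratin and rested on a pair of arrays. Krt76, a keratin of the cornifying oral epithelium, was measured at 12.83, 11.21 and 7.72 in E1, E2 and E3 and at 7.47, 7.85 and 7.37 in C1, C2 and C3. E3 lay among the controls while E1 and E2 lay more than 3 units above them, and the difference of 3.03 ± 1.60 was therefore poorly determined. Krt10 lay at 12.16 in E1 and 10.09 in E2, and E3 lay below the controls, which were at 7.42, 7.89 and 8.38. Of 22 oral epithelium genes 17 lay higher, with a median of 0.39 and none without overlap, and without E1 the median was -0.08. Of 10 skeletal muscle genes 9 lay higher, with a median of 0.50, and 0.04 without E1. The muscle oxygen carrier Mb lay at 9.74 in E1 and between 6.21 and 7.24 in the other arrays. The part of these cell types in the matrix and resorption differences was not tested.

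By the title numbers, the left molars of 31 days came from the same animals, except that E2 gave a right molar only. Most genes 2-fold lower had the same direction in them. Of the 24 genes, 23 had a lower experimental mean in the left molars too, with a median of -1.02. Over all genes 31.6% lay higher there and the median was -0.13. Of the 24, 15 were without overlap on the lower side, beside 18.3% of all genes. Fmod differed by -2.01 ± 0.59 in the left and Ccn3 by -1.27 ± 0.38. Of the 8 genes 2-fold higher, 7 had a higher experimental mean in the left molars too, with a median of 0.63. Of these 8, 0 were without overlap in the same direction, beside 3.16% of all genes. Panx3 lay the opposite way there: the left molars of E1 and E3 were at 6.74 and 6.62 and those of the controls at 7.73, 7.94 and 7.71. Within an animal, the right molar exceeded the left by 2.02 in E1 and by 3.45 in E3, while the controls differed between sides by -0.19, -0.15 and 0.16. The contrast of the experimental effect between right and left was 2.75 ± 0.54 for Panx3, with an adjusted p of 0.314 (limma), and 0 of 13624 genes passed in that contrast (0%), with 1096 at an unadjusted limma p under 0.05. Ptx3 and Tnmd also lay higher in the right and lower in the left experimental molars, with left differences of -0.54 ± 0.30 and -0.48 ± 0.50, and neither contrast passed.

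**Figure D4:**
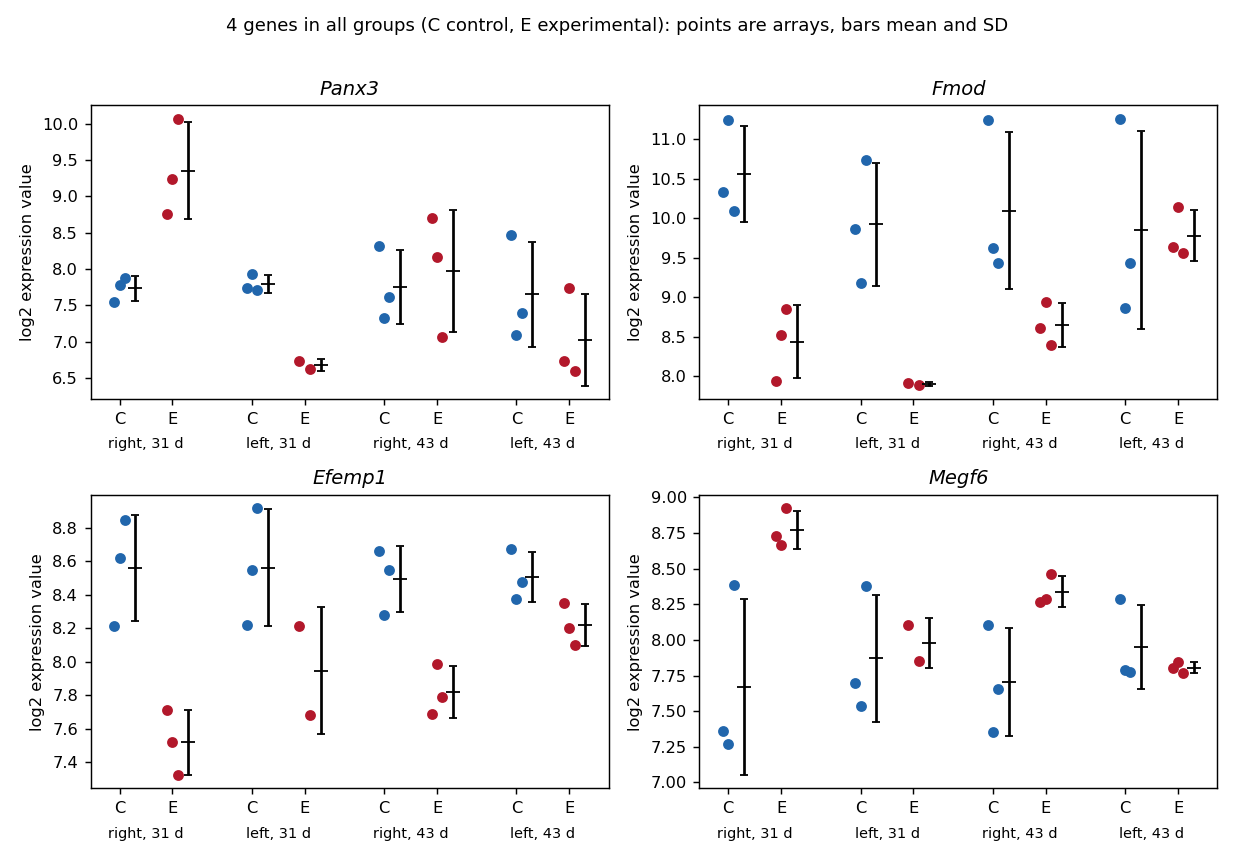
Log2 expression values of Panx3, Fmod, Efemp1 and Megf6 in all 8 groups of side, age and condition, with points for arrays and bars for mean and SD (n = 3, and 2 for experimental left molars of 31 days). Panx3 is highest in the experimental right molars of 31 days (8.76 to 10.07) and lowest in the experimental left molars of that age (6.62 and 6.74).

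In right molars of 43 days, from other animals, most differences of the genes 2-fold apart at 31 days were smaller. Those genes were chosen for a large difference at 31 days, so smaller values in another comparison can come from that choice alone. The 24 lower genes had a median of -0.56 there, 21 had a lower experimental mean, and 7 were without overlap on the lower side, beside 3.67% of all genes. Efemp1 differed by -0.68 ± 0.18, Fmod by -1.45 ± 0.53 and Ccn3 by -0.87 ± 0.34, each without overlap of its groups. The 8 higher genes had a median of 0.42 there and 7 had a higher experimental mean, beside 56.7% of all genes. Of the 8, 3 were without overlap in the same direction, beside 6.57% of all genes. Enox2 differed by 0.64 ± 0.13 and Megf6 by 0.63 ± 0.24, close to or below their values at 31 days, whereas Panx3 differed by 0.22 ± 0.41. Resorption genes did not lie lower at 43 days to the same extent: the osteoclast median was -0.02 and that of macrophage genes 0.07. The granulocyte median was 0.75 and the erythroid median 0.79 at that age. Of 13624 genes, 0 (0%) passed the test of the difference between ages (limma, with 0.9997 as the lowest adjusted p), while 325 lay under 0.05 without adjustment, so a difference in effect between ages was not shown for any gene.

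**Figure D5:**
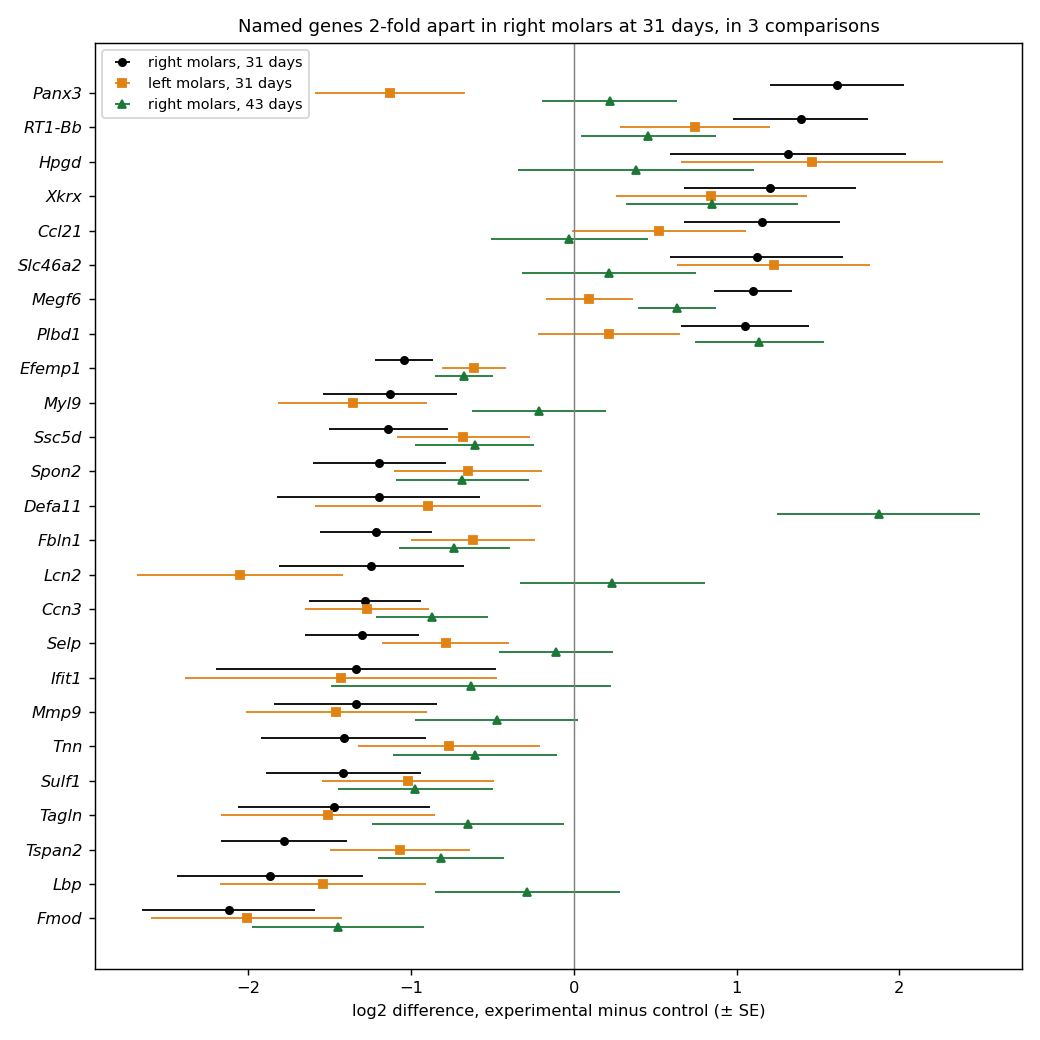
Difference between experimental and control arrays (log2, with SE) for the 25 genes named by rule that were 2-fold apart in right molars at 31 days, in that comparison and in left molars at 31 days and right molars at 43 days. The genes were chosen on the first comparison; Fmod is at -2.12, -2.01 and -1.45 and Panx3 at 1.62, -1.13 and 0.22.

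Of the genes 2-fold lower without overlap, Ifit1 and Defa11 had widely spread controls, and 7 others lay outside the rule for naming. Ifit1, induced by interferon, lay at 4.77, 4.98 and 5.36 against 5.41, 5.47 and 8.25, so that C3 stood far above the other 5 arrays. All of these but C3 lay under the filter limit of 5.81, which applied to a gene's mean over all arrays. The difference was -1.34 ± 0.86, and -0.40 without C3. The 14 interferon genes had a median of -0.08. Defa11, an antimicrobial defensin, lay at 5.31, 5.22 and 5.78 against 6.70, 5.99 and 7.22, a difference of -1.20 ± 0.62. Its experimental values all lay under the filter limit. The 7 genes, named after their values were seen, were Plpp4, Lrrc15, Mgp, Ace, Slco2a1, Enpp2 and the receptor gene Vom2r63, with differences between -1.25 and -1.01. The experimental values of Vom2r63, 4.40 to 5.08, also lay under the filter limit. Mgp, which inhibits calcification of matrix, differed by -1.06 ± 0.37. Ace, the enzyme that produces angiotensin II on endothelium, differed by -1.05 ± 0.27, and Slco2a1, which takes prostaglandins into cells, by -1.02 ± 0.38.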

How the data were processed

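Per the labels' protocols, RNA from ligament scraped off first mandibular molars (200 ng per sample) was labelled for Affymetrix whole-transcript arrays. The values deposited by the authors are log2, and the submitters' processing notes name RMA and Partek; versions and settings were not given in the sources used here. Of 36685 probe sets, 18511 carried 1 gene symbol in the platform annotation, 575 several and 17599 none. They gave 18166 genes, each represented by its probe set of highest mean. Columns were quantile normalized, and genes under the 25th percentile of mean value (5.81) were left out, leaving 13624.

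Group means of all 23 arrays were fitted with limma 3.58.1 (R 4.3.3, statmod 1.5.0) and the animal as a random block (correlation 0.26). Benjamini-Hochberg adjustment was over all genes tested, at a threshold of 0.05. The fit was checked on simulated data. SE is that of a difference in the limma fit, in which all 23 arrays share an estimate of each gene's spread. SD is that of the arrays of a group. Groups held 3 arrays each, and experimental left molars of 31 days held 2. Precision is limited by the number of arrays, which have no sequencing depth. A gene was called 2-fold apart where the groups did not overlap and the means differed by at least 1.

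The genes and the 32 lists were chosen with earlier results of these data known, and lists are described by counts and medians without a test. A rule gave the genes that could be named, and some of them, such as Plec, Serpinb6a and Fetub, are not described above. Per direction it took the 15 genes with the largest difference without overlap and the 5 with the smallest p. It also took up to 4 members of each list, Panx3, Efemp1, Tspan2 and Megf6, and 3 per direction from each contrast of effects. Placeholder symbols and sensory receptors were passed over. Further list members (such as Postn, Col1a1, Spp1, Bglap, Runx2, Cd68) and class II genes were named after their values were seen. Promoter windows come from RefSeq, GRCr8, whose table was otherwise used for names only. Alternatives were the deposited values, these 6 arrays alone, the set of arrays as a block or the higher set alone, no filter, the mean of a gene's probe sets, no animal block, the replicate number as a block, and leaving out each array.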

Additional observations from a re-analysis of the deposited data

Results flagged for a closer look

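The results given here are those in which the experimental and control arrays were apart in opposite directions in right molars of 31 days and in a compared group. Of 75 named genes looked at, 6 met this, and in the limma test of the difference itself no gene passed. The share of all genes that met it was not counted, and the naming rule also took genes with a small p in these contrasts. In left molars, with 2 experimental arrays, no overlap is easier to meet, and 18.3% of all genes were apart on the lower side. Panx3 lay higher in the right and lower in the left experimental molars of 31 days, a difference between sides of 2.75 ± 0.54 (limma adjusted p = 0.314). Ptx3 differed between sides by 1.41 (adjusted p = 0.423), A4galt, a glycolipid synthase, by 0.65 (0.496), and Car7, a carbonic anhydrase, by 0.45 (0.542). Between right molars of 31 and 43 days, Defa11 differed in effect by -3.07: the control mean was 6.64 and the experimental mean 5.44 in the younger animals, against 5.85 and 7.72 in the older ones. Rag1 differed by -1.42, with a control mean of 6.33 and an experimental mean of 5.53 in the younger, and 5.95 against 6.57 in the older animals. For Defa11 and Rag1 the experimental mean of the younger animals lay under the filter limit of 5.81.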

How the results depend on the processing

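The count of 0 genes with a limma adjusted p under 0.05 held under all 14 alternatives, and the lowest adjusted p of a gene named here was 0.0562, for Megf6 without C3. All 75 genes followed through the alternatives kept their direction in each. Many of them were chosen for groups that did not overlap. For such a gene the difference of means cannot reverse when an array is left out, so this says little about stability. The counts of genes 2-fold apart differed between alternatives. Where an array is left out or only the higher set is kept, a group has fewer arrays and no overlap is easier to meet. The 8 higher became 15 with the values as deposited and 13 without the filter, and 7 to 276 when an array was left out (276 without E3, 32 without C3, 12 without E2). The 24 lower became 13 as deposited and 37 within the set of arrays with higher medians, and 17 to 71 when an array was left out (71 without E3, 45 without C1, 40 without E2, 37 without C2). The cell cycle median was 0.32 as deposited, and that of the granulocyte list ranged from -1.07 (without C2) to -0.26 (without E1). Of 32 list medians, 11 changed sign as deposited, 7 without E1, 7 without C3, 3 without C1, 1 without C2, 1 without E2 and 0 without E3; the cause was not tested. The replicate numbers belong to different animals. Deviations from the group mean correlated at -0.03, 0.06 and 0.17 for same-numbered arrays and at -0.169 to 0.165 for differently numbered ones. With 3 arrays per group these values cannot settle whether the numbers paired animals. With the number as a replicate block, 0 genes passed (smallest adjusted p 0.851) and 565 had an unadjusted limma p under 0.05. The set of arrays as a block gave a smallest adjusted p of 0.341. No background signal was used, so values near the filter may hold little signal.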

Other observations

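Control molars also varied between the sides of an animal. In C2, Fmod was 2.07 higher in the right than in the left molar, while in C1 and C3 the right exceeded the left by 0.47 and -0.64. The experimental animals E1 and E3 differed by 0.02 and 0.96. For Efemp1 the right minus left difference was -0.01, 0.07 and -0.07 in C1, C2 and C3, and -0.50 and -0.36 in E1 and E3, and for Megf6 it was -0.34, -0.27 and 0.00 in the controls and 0.62 and 1.07 in E1 and E3.

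Cfd (adipsin, a complement protease made by fat cells) lay higher by 0.20 ± 0.18 in right and differed by -0.86 in left molars of 31 days, a contrast of 1.06 with a limma adjusted p of 0.314. Of 9 adipocyte genes 3 lay higher in right molars. Nerve and Schwann cell genes had a median of -0.10, dental pulp genes -0.16, enamel epithelium genes -0.11, T and NK cell genes -0.01 and mast cell genes -0.05, and hypoxia and glycolysis genes 0.11.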
